A study of Rattus norvegicus with 20 samples.

Results

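Chemokines are small secreted proteins that direct the movement of leukocytes through G protein-coupled receptors on the cell surface, and their names follow the spacing of conserved cysteines. In blood, the receptors are carried by leukocytes: Cxcr2 by neutrophils, Ccr2 and Cx3cr1 by monocytes, Cxcr3 and Cxcr6 by T cells and natural killer cells, Cxcr5 by B cells and Ccr3 by eosinophils. The ligands are made by leukocytes, platelets and tissue cells, many of them after inflammatory stimulation.

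The members were the genes of the array whose scanner-file name began with Ccl, Ccr, Cxcl, Cxcr, Cx3c, Xcl or Xcr and went on with a digit, l or r, with Ccr7 left out. There were 54 such genes with 60 probes, among 26276 gene names on the array, and the brightest probe stood for each gene. A gene was tested when that probe was well above background, by the scanner software's own mark, on at least 4 of the 20 arrays. This held for 34 members and for 15243 genes in all. Of 34 ligands 18 were tested, and of 20 receptors 16.

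Whole blood came from 20 Wistar rats, which formed 5 groups of 4, and every rat had its own array. Omeprazole, a proton pump inhibitor, was given at 30 mg/kg to 1 group with surgically induced reflux esophagitis. STW5, a herbal preparation, was given at 2 ml/kg and at 0.5 ml/kg to another 2 groups with the same operation. Another operated group was left untreated, and the last group had a sham operation without esophagitis. The treated rats received their agent for 7 days before and 10 days after the operation. Within a group the arrays were of different animals.

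Levels are log2 intensities minus the log2 of the array's 75th percentile, so that 0 is that percentile on each array, and the level of 1 probe cannot be set against that of another. The 75th percentile lay between 71.3 and 308 intensity units, and between 43.1% and 57.4% of probes were well above background on an array. No spot was saturated. Untreated and sham arrays shared slide 1, both STW5 groups slide 2, and omeprazole had slide 3, each slide with its own scan. When a treated group is set against untreated or sham rats, the slide and the agent cannot be told apart. The titles and the design text number the STW5 groups in opposite order. In the authors' deposited value table, the STW5 columns follow the scanner files of the other dose. The titles, with the scanner files filed under them, were followed, and each statement on a single dose rests on both. Which dose each STW5 array had could not be settled, and a swap would reverse the sign of each change between doses. Untreated array 1 correlated better with the sham arrays (mean r = 0.984 over all genes tested) than with the other untreated arrays (mean r = 0.920). Untreated array 2 stood apart in its marker genes. The mean level of 12 neutrophil markers was 3.72 on it, against 0.19 to 0.91 on sham arrays, and that of 9 T cell markers was -1.48, against 1.44 to 1.82. In blood, fewer cells of a type and less RNA per cell cannot be told apart.

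Receptors were well above background more widely than ligands. On all 20 arrays this held for 11 receptors, namely Ccr1, Ccr1l1, Ccr2, Ccr6, Ccr9, Ccrl2, Cx3cr1, Cxcr2, Cxcr3, Cxcr4 and Cxcr5, and for 6 ligands, namely Ccl3, Ccl5, Ccl6, Ccl20, Ccl24 and Ccl27. Other tested receptors were Ccr10 (17 arrays), Cxcr6 (12), Ccr3 (10) and Xcr1 (4). The other tested ligands were Xcl1 (18 arrays), Ccl4 (16), Cxcl16 (15), Ccl9 (13), Ccl17 (11), Ccl22 (9), Cxcl17 (9), Cxcl10 (8), Cxcl3 (6), Cxcl5 (6), Ccl2 (4) and Cx3cl1 (4). On no array was this reached by Cxcr1, a receptor for neutrophil-attracting ligands, or by Ccl1, Ccl12, Ccl19, Ccl21, Ccl26, Ccl28 and Cxcl13. The remaining 12 members reached it on 1 to 3 arrays: Ccl7, Ccl11, Ccl25, Ccr4, Ccr8, Cxcl1, Cxcl2, Cxcl9, Cxcl11, Cxcl12, Cxcl14 and Cxcr7, which RefSeq now calls Ackr3.

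**Figure D1:**
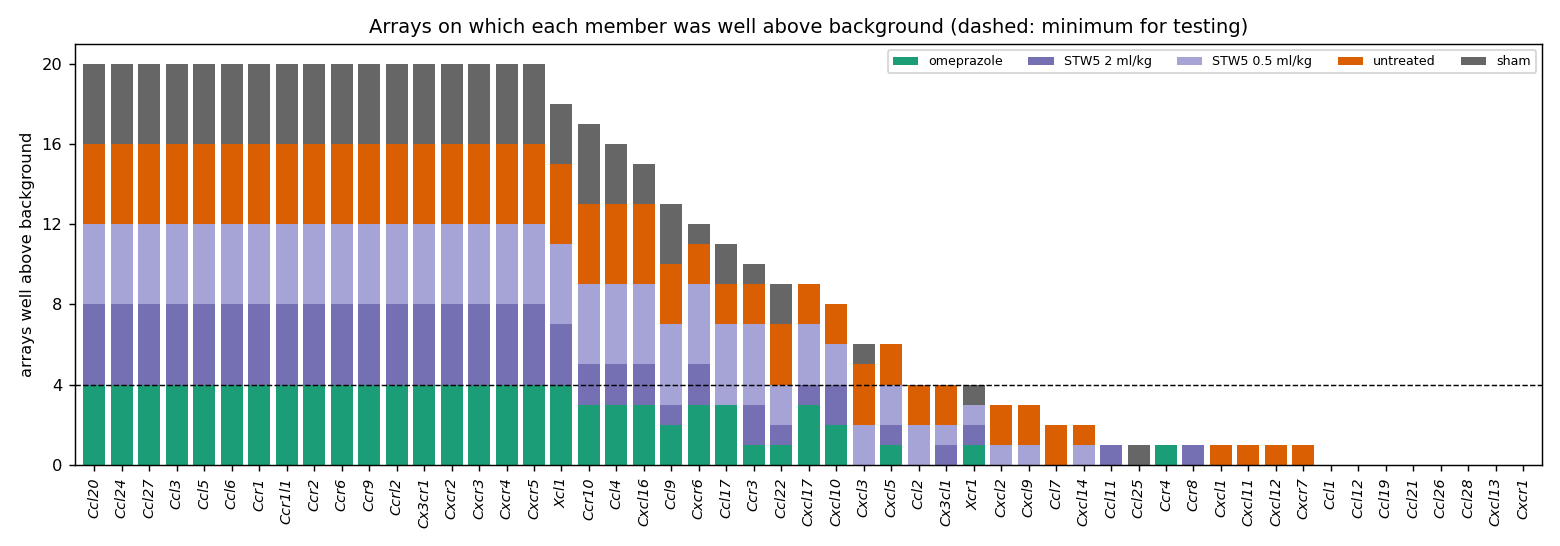
Number of arrays (of 20) on which each of the 54 members but 1 that is not shown was well above background, stacked by group of 4 arrays. The dashed line marks the minimum of 4 arrays for testing; 17 members reached 20 arrays and 8 reached none.

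Setting omeprazole against untreated esophagitis asks what the acid-suppressing drug did to the blood of operated rats. These groups lay on different slides. Ccl24, an eotaxin that attracts eosinophils through Ccr3, Cxcl16, the ligand of Cxcr6, and Cx3cr1, the receptor for fractalkine, were lower under omeprazole, and no member was higher. The 3 called members of 34 tested (8.82%) stand beside 4.18% of all genes called in either direction and 3.83% called lower. At an unadjusted p below 0.05 there were 6 members (17.6%), against 15.5% of all genes. The median log2 change was -0.07 over the members and 0.10 over all genes tested. Calls were made at an adjusted p below 0.05 from limma over all 15243 genes.

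Ccl24 had levels of 3.16, 3.04, 3.28 and 2.96 under omeprazole, 5.34, 4.51, 4.13 and 4.35 under STW5 at 2 ml/kg and 3.98, 3.62, 3.78 and 3.97 under STW5 at 0.5 ml/kg. Its levels were 4.18, 4.33, 4.83 and 4.58 in untreated rats, against 4.01, 3.74, 4.19 and 3.93 in sham rats. All 4 omeprazole arrays lay below the other 16 arrays, the nearest of which was STW5 0.5 ml/kg array 2. The log2 change against untreated rats was -1.37 ± 0.24 (SE, n = 4 each), a fold of 0.387 (limma, adjusted p = 0.00081). The call held in each of 18 alternative settings, with adjusted p between 9.332e-05 and 0.0184. Of the eosinophil, basophil and mast cell markers, Prg3, Epx, Il5ra, Ms4a2 and Fcer1a were not well above background on 4 arrays. The 3 that were tested, Prg2, Cpa3 and Alox15, had a median change of -0.38, and their mean level spanned -0.26 to 1.07 under omeprazole, against -0.95 to 2.86 in untreated rats. They did not move together. Group means under omeprazole and in untreated rats were -1.17 and -0.78 for Prg2, -4.985 and -3.74 for Cpa3, and 7.80 and 7.58 for Alox15. The median and mean of these 3 therefore do not measure eosinophils alone. The part of such cells in the Ccl24 result was not tested.

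The Ccl24 probe lies at chr12:22259230-22259289 of rn4, the build named in the file headers, on the plus strand. Its sequence is shown because it resembles probes of other genes: at least 25 bases were identical in probes of 3 other genes, with 48 for Oas1b, 48 for RGD1307155 and 46 for Cpg1. The closest 30-base windows of the Ccl24 and Oas1b probes, identical at 25 positions, follow with the differing bases in capitals.
Ccl24: tgtaaTccagccccaattaAatgttTtCCt
Oas1b: tgtaaGccagccccaattaCatgttGtTTt
Under omeprazole against untreated rats, the log2 change was -2.01 for the Cpg1 probe (limma, adjusted p = 7.749e-05), -0.10 for Oas1b (adjusted p = 0.853) and 0.48 for RGD1307155 (adjusted p = 0.551). Whether RNA of other genes contributed to the Ccl24 signal was not tested.

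Cxcl16, a membrane-bound ligand that also takes up oxidised lipoprotein, had levels of -3.88, -3.15, -3.20 and -2.91 under omeprazole, -2.69, -2.71, -2.31 and -4.69 under STW5 at 2 ml/kg and -1.61, -1.21, -2.35 and -3.31 under STW5 at 0.5 ml/kg. Its levels were -1.67, 2.43, -2.42 and 2.66 in untreated rats, against -2.48, -3.57, -1.48 and -2.92 in sham rats. Untreated arrays 2 and 4 were high and the other 18 arrays were all below -1.2. The omeprazole and untreated groups did not overlap. The log2 change was -3.53 ± 0.90 (SE, n = 4 each; limma, adjusted p = 0.0258), a fold of 0.0864. Cxcl16 was well above background on 3 omeprazole, 2 STW5 2 ml/kg, 4 STW5 0.5 ml/kg, 4 untreated and 2 sham arrays. The size of the fold therefore rests in part on a value at background. The adjusted p was 0.101 without untreated array 2 and 0.120 without untreated array 4. Leaving out omeprazole array 1, 2 or 3 gave adjusted p values of 0.0757, 0.0615 and 0.0594. On the same 2 untreated arrays the mean level of 9 monocyte markers was 1.81 and 1.70, against 0.31 and 0.46 on untreated arrays 1 and 3. Under omeprazole it was 0.74 to 1.07. The part of monocytes in the Cxcl16 result was not tested.

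Cx3cr1, carried by patrolling monocytes and cytotoxic lymphocytes, had levels of 1.03, 0.33, 0.07 and 0.78 under omeprazole, 1.49, 1.90, 3.62 and 3.26 under STW5 at 2 ml/kg and 0.77, 0.65, 1.22 and 1.69 under STW5 at 0.5 ml/kg. Its levels were 1.31, 1.502, 3.82 and 3.38 in untreated rats, against 1.18, 1.35, 1.30 and 1.64 in sham rats. Untreated arrays 3 and 4 and STW5 2 ml/kg arrays 3 and 4 were high, between 3.26 and 3.82, and the next highest array stood at 1.90. Omeprazole arrays all lay below the untreated ones. The log2 change was -1.95 ± 0.52 (SE, n = 4 each; limma, adjusted p = 0.0350), a fold of 0.259. The call was lost without untreated array 3 or 4 (adjusted p = 0.111 and 0.145) and without omeprazole array 2, 3 or 4 (adjusted p = 0.109, 0.117 and 0.0631). Another member passed the threshold when 1 untreated array was left out: Cx3cl1 without array 3 (746 called genes) and Ccl6 without array 4 (523 called genes).

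The Cx3cr1 probe, at chr8:125033728-125033787 of rn4 on the minus strand, ends in a repeat, and its last 30 bases are shown for that reason with the 22 repeat bases in capitals.
Cx3cr1: aacagattCACACACACACACACACACACA
Another 24 tested genes had a probe with a CA or TG repeat of at least 16 bases, a length chosen after the values were seen. Under omeprazole against untreated rats these 24 genes had a median log2 change of -1.17, against 0.10 for all genes tested, and ranged from -2.45 to 0.30. Of them 2 were called lower (8.33%). Against untreated rats, their median was 0.30 for STW5 at 2 ml/kg, where Cx3cr1 changed by 0.07, and -0.92 for STW5 at 0.5 ml/kg, where Cx3cr1 changed by -1.42. Between the STW5 doses their median was 1.25, and the Cx3cr1 change was 1.49. All genes had medians between 0.02 and 0.18 in these comparisons. At least 25 bases were identical in 4 other probes. These were 34 for Glra2, 31 for Tmem47, 27 for a probe without a gene name and 26 for Rassf2. In that order their log2 changes under omeprazole against untreated rats were -1.17, -1.35, -1.15 and -1.42. None was called (limma, adjusted p = 0.314, 0.253, 0.306 and 0.214). In untreated against sham rats their changes were 1.12, 1.19, 1.04 and 1.18, where Cx3cr1 changed by 1.13. Whether the Cx3cr1 probe measured Cx3cr1 RNA alone was not tested.

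**Figure D2:**
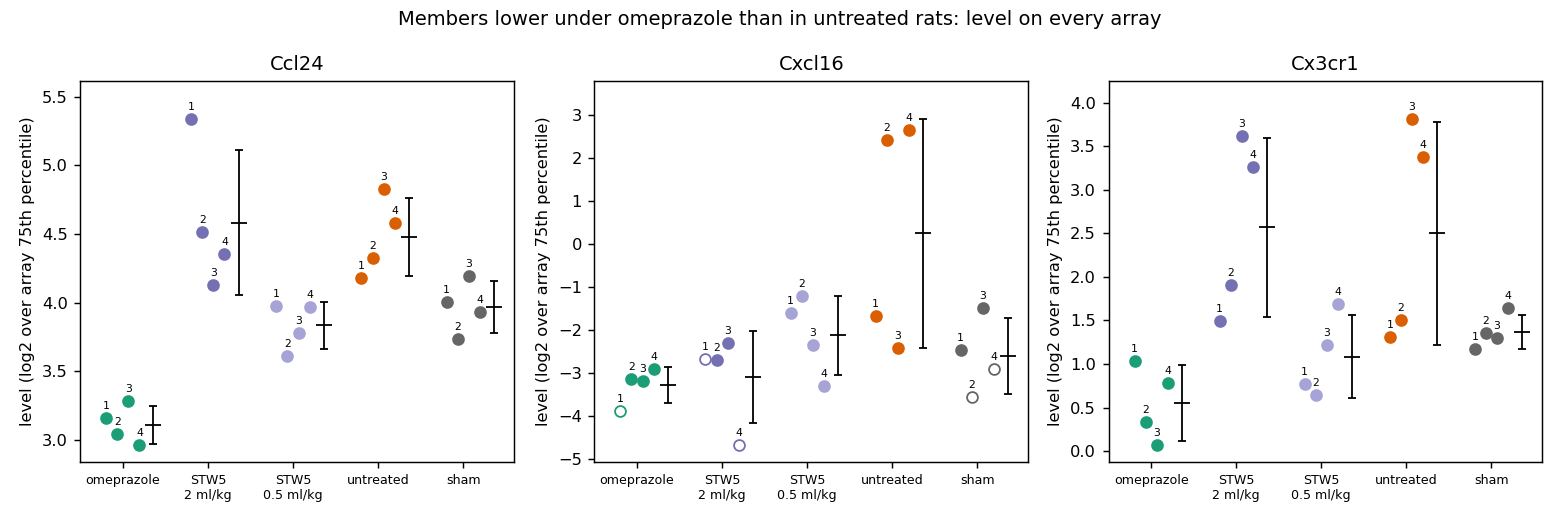
Level (log2 over the array's 75th percentile) of the 3 members called under omeprazole, on each of the 20 arrays, numbered by replicate. Bars give the mean ± SD (n = 4) and open circles are arrays not well above background. Ccl24 is lowest on the 4 omeprazole arrays, Cxcl16 is high on untreated arrays 2 and 4, and Cx3cr1 is high on 2 untreated and 2 STW5 2 ml/kg arrays.

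**Figure D3:**
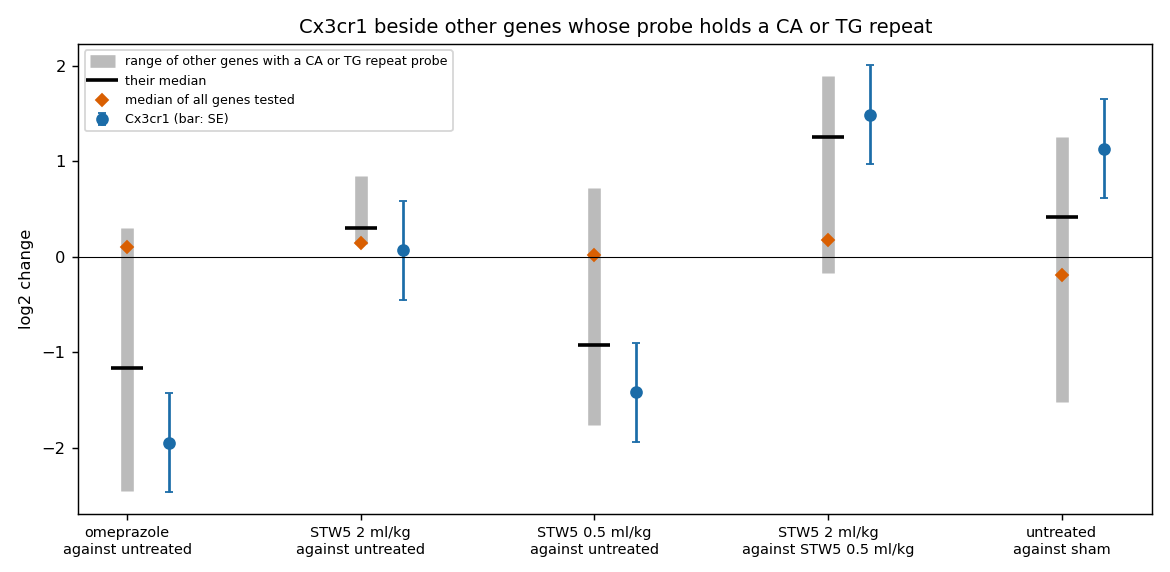
Log2 change in 5 comparisons of Cx3cr1 (circles, bar SE), of 24 other genes whose probe holds a CA or TG repeat of at least 16 bases (grey range, black median) and of all genes tested (diamonds, median). Cx3cr1 and the repeat genes' median lie on the same side of 0 in each, with Cx3cr1 at 0.07 ± 0.52 for STW5 2 ml/kg against untreated rats. The comparisons share arrays, and the repeat length was chosen after the values were seen.

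Setting untreated esophagitis against sham operation asks what the reflux operation did, and both groups lay on 1 slide. No member was called by limma, and 1 of all 15243 genes was (0.00656%). At an unadjusted p below 0.05 there were 5 members (14.7%), all higher in untreated rats, against 18.2% of all genes. The members' median log2 change was 0.17, and that of all genes was -0.19. The members' median was -0.17 with normexp background correction and 0.037 without untreated array 4. Of the 34 members 21 lay above 0 (61.8%), as did 38.1% of all genes.

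Among the smallest p values were those of Cxcl16 (log2 change 2.86 ± 0.90, SE, n = 4 each) and Cxcr2 (1.35 ± 0.45), each with an adjusted p of 0.242 (limma). Cxcr2, through which neutrophils follow Cxcl1, Cxcl2, Cxcl3 and Cxcl5, had levels of 1.02, 3.05, 3.23 and 2.17 in untreated rats, against 0.55, 1.22, 0.98 and 1.30 in sham rats. The treated arrays had Cxcr2 levels of 2.51, 3.02, 2.13 and 3.48 under omeprazole, 2.99, 2.84, 2.89 and 1.56 under STW5 at 2 ml/kg and 2.83, 2.24, 3.53 and 2.31 under STW5 at 0.5 ml/kg. Sham arrays and untreated array 1 lay between 0.55 and 1.30, and the other 15 operated arrays lay at 1.56 or above. Such a split was not counted over all genes tested. The treated arrays lay on other slides than the sham arrays, so slide and group cannot be told apart for them. The mean neutrophil marker level was 0.81 to 3.72 in untreated rats and 0.19 to 0.91 in sham rats, with 11 of 12 markers above 0 in this comparison and none called. The part of neutrophil number in the Cxcr2 levels was not tested.

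Leaving out untreated array 1, the one near the sham arrays, gave 4 called members, with Ccr1l1, Cxcl16 and Cxcr2 among them, and 1775 called genes: 11.8% of the tested members and 11.6% of all genes. Leaving out each of the other 7 arrays gave no member call and at most 1 called gene.

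Several ligands had a high level on 1 untreated array. Cxcl10, which attracts activated T cells through Cxcr3, had levels of -4.88, -5.68, -2.36 and 1.70 in untreated rats, against -4.81, -3.51, -4.90 and -4.79 in sham rats. Untreated array 4 was far above the rest, and no sham array was well above background. Cx3cl1, the fractalkine ligand of Cx3cr1, had levels of -3.25, -1.17, -4.70 and -2.65 in untreated rats, against -3.66, -4.04, -3.96 and -3.54 in sham rats, with untreated array 2 the highest. Ccl9, a monocyte attractant of rodents, had levels of -2.38, -0.57, -4.70 and -3.64 in untreated rats, against -3.28, -3.37, -1.97 and -1.86 in sham rats, and the groups overlapped. Cxcl3 reached 1.19 and Ccl2, the main ligand of Ccr2, -0.24 on untreated array 2, and both stayed at -1.99 or below on the other 19 arrays.

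Among members too dim to test, 3 ligands were singled out after their values were seen. Cxcl2, a neutrophil attractant, had levels of -4.90, 2.94, -6.49 and -1.73 in untreated rats, against -4.90, -5.62, -4.86 and -4.82 in sham rats, and passed the background mark on untreated arrays 2 and 4 and on 1 STW5 0.5 ml/kg array. Cxcl1, its neighbour, stood at 0.72 on untreated array 2 and at or below -4.52 on the other 19 arrays. Cxcl12, the ligand of Cxcr4, stood at -0.61 on untreated array 2 and below -4.2 elsewhere. The highest value of each of these 3 ligands came from the same animal, that of untreated array 2.

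The promoters of Cxcl1, Cxcl2 and Cxcl5 are shown because these clustered neutrophil attractants are textbook targets of NF-kappa B and the first 2 were bright on the same array. RefSeq names the array's Cxcl5 gene Cxcl6, and its promoter is given under the array's name. RefSeq (GRCr8) gave a promoter, from 250 bases before to 50 after the start, for 41 of the 54 members. A kappa B motif, GGG followed by any 2 bases and TTTCC, on either strand was in 6 of these 41 (14.6%), Ccl9, Ccl20, Ccr3, Cxcl1, Cxcl2 and Cxcl5, and in 1.53% of all 33469 promoters. Of the 6, Ccl9, Cxcl1 and Cxcl2 had their highest level on untreated array 2, and Ccl20, Ccr3 and Cxcl5 did not. Cx3cl1 and Cxcl12, whose promoters held no such motif, also had their highest level there. Any part of the motif in these levels was not tested. The 120 bases before the start follow, with the motif in capitals.
Cxcl1, chr14:17479322-17479441, minus strand: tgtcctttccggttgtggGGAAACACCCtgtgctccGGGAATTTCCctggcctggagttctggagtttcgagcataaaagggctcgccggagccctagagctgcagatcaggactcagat
Cxcl2, chr14:17467256-17467375, minus strand: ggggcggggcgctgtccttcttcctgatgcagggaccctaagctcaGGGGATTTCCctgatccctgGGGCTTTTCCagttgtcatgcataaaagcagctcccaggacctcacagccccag
Cxcl5, chr14:17596418-17596537, minus strand: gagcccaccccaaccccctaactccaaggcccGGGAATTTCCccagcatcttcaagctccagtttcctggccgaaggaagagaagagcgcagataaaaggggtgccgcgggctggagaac
A match describes the letters only, and binding was not measured.

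**Figure D4:**
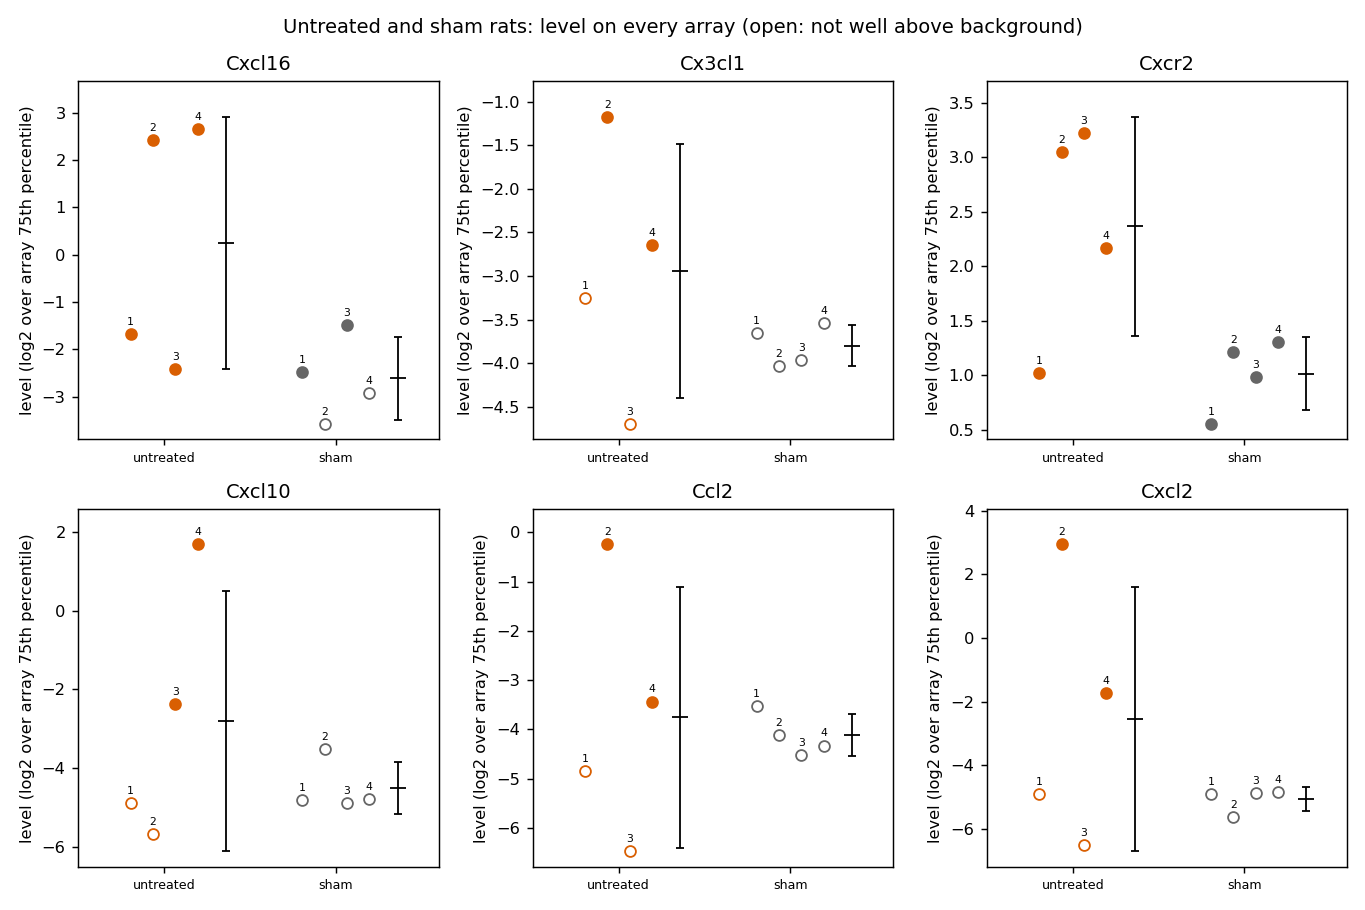
Level (log2 over the array's 75th percentile) of 6 members on the 4 untreated and 4 sham arrays, numbered by replicate, with mean ± SD (n = 4); open circles are not well above background. Untreated arrays 2 and 4 carry the high values of Cxcl16, array 4 that of Cxcl10, and array 2 those of Cx3cl1, Ccl2 and Cxcl2.

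**Figure D5:**
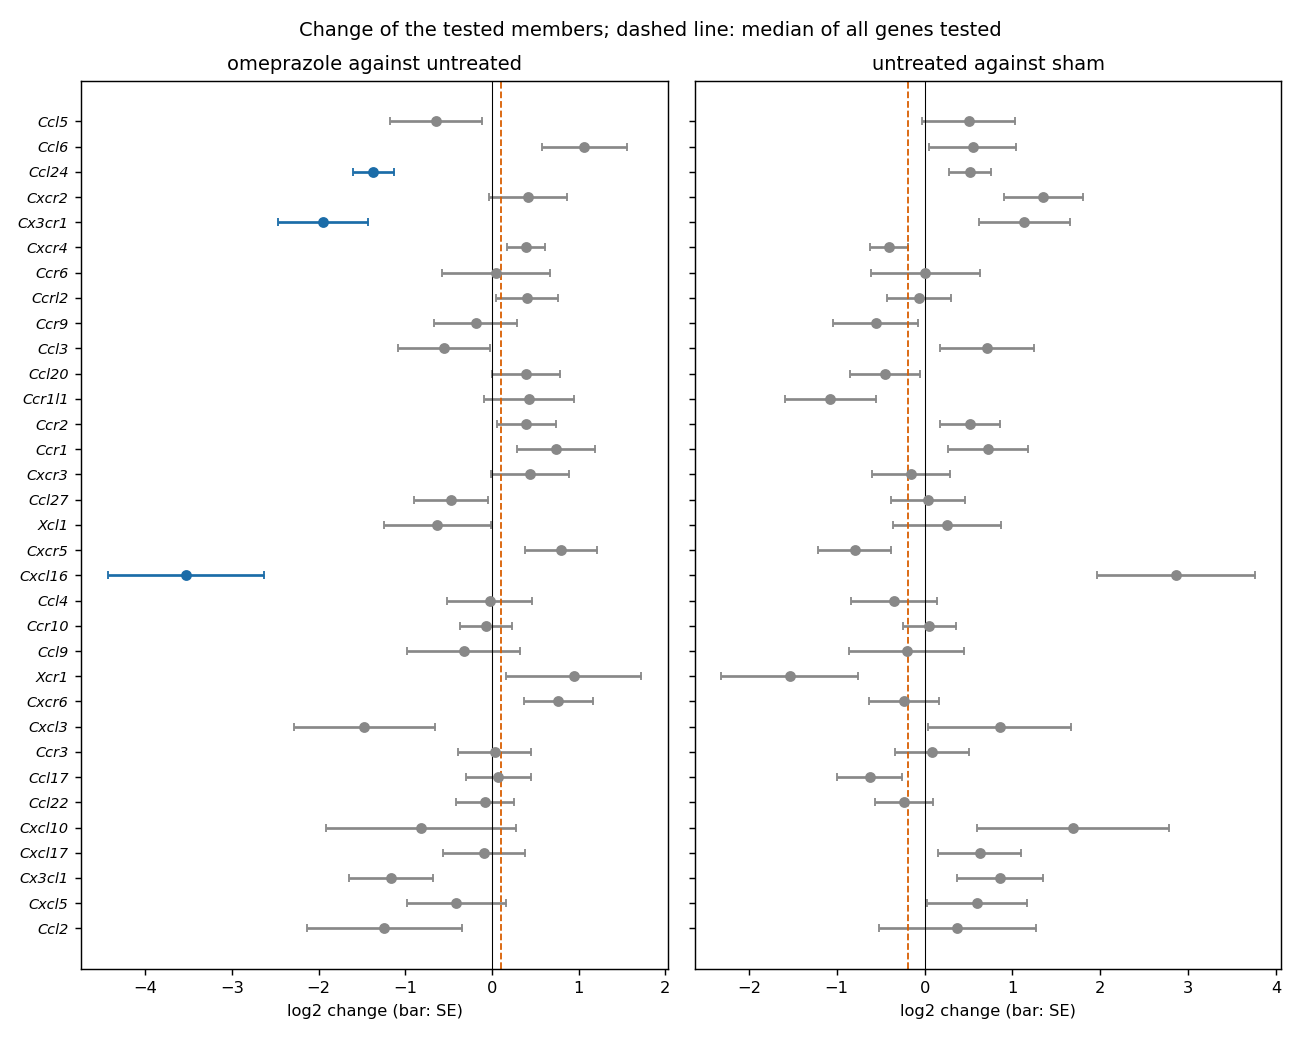
Log2 change with its SE for the 34 tested members, but for 1 not shown, under omeprazole against untreated rats (left) and in untreated against sham rats (right). Blue marks the 3 called members, and the dashed line the median of all genes tested, 0.10 on the left and -0.19 on the right.

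With STW5 at 2 ml/kg against untreated rats limma called no member and no gene (0%). At an unadjusted p below 0.05 there were 6 members (17.6%), against 23.5% of all genes. The smallest p values belonged to Cxcl16 (log2 change -3.35 ± 0.90, adjusted p = 0.0972 by limma), Cxcr4 (0.68 ± 0.22, adjusted p = 0.1001) and Ccl20 (1.13 ± 0.39, adjusted p = 0.116). Over 18 alternative settings, the change ran from -4.235 to -1.59 for Cxcl16, 0.28 to 0.84 for Cxcr4 and 0.11 to 1.37 for Ccl20. The highest adjusted p values were 0.8145, 0.9808 and 0.9839 (limma), and the calls numbered 2, 1 and 1. These settings include the authors' deposited table, where STW5 columns follow the other dose. Cxcr4, which holds leukocytes in bone marrow through Cxcl12, had levels of 1.49, 1.65, 1.53 and 1.84 under omeprazole, 1.71, 1.96, 1.97 and 2.04 under STW5 at 2 ml/kg and 1.51, 1.24, 1.59 and 1.45 under STW5 at 0.5 ml/kg. Its levels were 1.69, 0.71, 1.52 and 1.03 in untreated rats, against 1.43, 1.53, 1.83 and 1.76 in sham rats. The STW5 2 ml/kg arrays lay above all untreated arrays, and overlapped the sham arrays. Leaving out untreated array 1 gave 6 called members, with Ccl20, Ccr1l1, Cxcl16, Cxcr4 and Cxcr5 among them (17.6%), and 3015 called genes (19.8%). Leaving out STW5 2 ml/kg array 3 gave 1 called member, Cxcl16 (2.94%), and 1038 called genes (6.81%).

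With STW5 at 0.5 ml/kg against untreated rats limma called no member and no gene (0%), with 5 members (14.7%) and 5.93% of all genes at an unadjusted p below 0.05. The smallest p values belonged to Cx3cl1 (log2 change -1.85 ± 0.49, adjusted p = 0.476 by limma), Cx3cr1 (-1.42 ± 0.52, adjusted p = 0.670) and Ccl24 (-0.64 ± 0.24, adjusted p = 0.670). Cx3cl1 had levels of -3.73, -4.37, -3.98 and -4.34 under omeprazole, -3.81, -3.28, -4.37 and -4.28 under STW5 at 2 ml/kg and -4.89, -5.18, -4.11 and -4.97 under STW5 at 0.5 ml/kg. It passed the background mark on 1 array at this dose and on 2 untreated arrays. Its change rests on values mostly at background: it was -0.53 with normexp background correction and -1.26 without untreated array 2, and without untreated array 3 it was -2.43 and was 1 of 5 called genes. With the mean of both doses against untreated rats, no member and no gene was called (0%), and 4 members (11.8%) and 9.55% of all genes had an unadjusted p below 0.05. The smallest p values were those of Cxcl16 (-2.86 ± 0.78) and Cx3cl1 (-1.42 ± 0.42), each with an adjusted p of 0.459 (limma). The Cx3cl1 change was -0.83 without untreated array 2 and -0.16 with normexp. Without untreated array 1, Cxcl16 was called, among 168 genes. All comparisons with untreated rats share those 4 arrays.

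Between the doses, 2 against 0.5 ml/kg, limma called no member and no gene (0%). At an unadjusted p below 0.05 there were 6 members (17.6%), against 26.6% of all genes, and the medians were 0.29 for members and 0.18 for all genes. The member median was 0.024 with quantile normalization, 0.054 with a stricter filter on dim probes and -0.14 in the authors' deposited table, where STW5 columns follow the other dose. Ccl24 (log2 change 0.75 ± 0.24, adjusted p = 0.0959 by limma), Ccl27 (1.28 ± 0.42, adjusted p = 0.101) and Cx3cr1 (1.49 ± 0.52, adjusted p = 0.109) had the smallest p values. Without STW5 2 ml/kg array 1 the Ccl24 change was 0.50, and without array 3 of that dose Ccl24 was called, among 806 genes (5.29%). Ccl27, a skin-homing ligand of Ccr10, had levels of -1.57, -2.33, -2.14 and -2.84 under omeprazole, -0.93, -0.40, -1.85 and -1.25 under STW5 at 2 ml/kg and -1.60, -3.16, -2.63 and -2.15 under STW5 at 0.5 ml/kg. Its levels were -1.40, -0.66, -2.67 and -2.26 in untreated rats, against -1.63, -2.27, -1.44 and -1.81 in sham rats. The dose groups overlapped. These levels move with the scaling: the unscaled log2 intensity of Ccl27 spanned 1.91 units over the 20 arrays and its level 2.76, and with the array's 75th percentile as a covariate the Ccl27 change was -0.07.

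Ccl20, the ligand of Ccr6, had levels of 1.05, 0.37, 0.58 and -0.51 under omeprazole, 1.49, 1.20, 0.503 and 1.24 under STW5 at 2 ml/kg and 0.63, -0.79, -0.18 and 0.42 under STW5 at 0.5 ml/kg. Its levels were 0.68, 0.08, -0.82 and -0.04 in untreated rats, against 0.12, -0.17, 1.07 and 0.68 in sham rats. Its unscaled log2 intensity stayed between 6.97 and 7.99 on all 20 arrays. That is a span of 1.02 units, against 2.31 for its level, so the Ccl20 levels also move with the scaling. The array carried 2 Ccl20 probes sharing 53 of 60 bases. The brighter, at chr9:82443354-82443413 of rn4 on the plus strand, was well above background on 20 arrays and the dimmer on none. The ends they do not share, 7 bases each, are in capitals in these 30-base stretches.
Ccl20, brighter probe, last 30 bases: aggcagtaagtttatatggccctTCTTGGA
Ccl20, dimmer probe, first 30 bases: TGAAGGGcgcttagtaaaaggttcaatatt
Whether the brighter probe measured Ccl20 RNA was not tested.

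Among the remaining ligands of blood cells, Ccl5, made by T cells, natural killer cells and platelets, had levels of 4.50, 4.68, 5.96 and 4.78 under omeprazole, 6.65, 5.92, 6.22 and 5.65 under STW5 at 2 ml/kg and 5.71, 7.02, 4.59 and 5.42 under STW5 at 0.5 ml/kg. Its levels were 4.79, 5.24, 6.37 and 6.12 in untreated rats, against 6.72, 4.56, 4.68 and 4.55 in sham rats. Sham array 1 was above the other sham arrays by more than 2 units, and the groups overlapped throughout. Ccl6, a myeloid chemokine of rodents, had levels of 5.33, 5.14, 4.23 and 5.12 under omeprazole, 4.38, 5.11, 4.55 and 3.12 under STW5 at 2 ml/kg and 5.13, 4.67, 5.89 and 4.44 under STW5 at 0.5 ml/kg. Its levels were 2.88, 3.63, 3.53 and 5.52 in untreated rats, against 3.15, 4.00, 2.97 and 3.25 in sham rats. Omeprazole arrays were above all sham arrays and 3 of 4 untreated arrays, with an unadjusted p below 0.05 against untreated rats and no call. Its second probe was also well above background on 20 arrays, with group means of 4.36 under omeprazole and 2.88 in untreated rats.

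Ccl3, an inflammatory ligand of Ccr1, had levels of -0.18, 0.55, 0.08 and 0.93 under omeprazole, -0.35, 0.89, 0.57 and 0.56 under STW5 at 2 ml/kg and 0.88, 0.45, 1.001 and 0.91 under STW5 at 0.5 ml/kg. Its levels were -0.78, 1.59, 2.41 and 0.38 in untreated rats, against 1.12, 0.78, -0.70 and -0.46 in sham rats. Untreated array 3 was the highest of all arrays, and untreated array 1 the lowest. Ccl4, an inflammatory ligand close to Ccl3 in sequence, had levels of -2.62, -2.48, -1.74 and -2.80 under omeprazole, -1.55, -2.90, -2.03 and -3.07 under STW5 at 2 ml/kg and -1.99, -0.41, -2.90 and -2.15 under STW5 at 0.5 ml/kg. Its levels were -1.82, -3.05, -2.19 and -2.49 in untreated rats, against -0.86, -2.46, -2.07 and -2.77 in sham rats. STW5 0.5 ml/kg array 2 and sham array 1 were the highest, as they were 2 of the 3 highest for Ccl5. Xcl1, a lymphocyte ligand of Xcr1, had levels of -2.41, -2.42, -1.88 and -2.41 under omeprazole, -0.96, -2.04, -2.41 and -2.81 under STW5 at 2 ml/kg and -2.24, -0.73, -2.63 and -1.48 under STW5 at 0.5 ml/kg. Its levels were -2.13, -2.95, -1.92 and 0.40 in untreated rats, against -0.34, -2.45, -2.64 and -2.19 in sham rats. Untreated array 4 and sham array 1 were the highest, and the groups overlapped.

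For Ccr1 and Ccr2, 12 of 16 operated arrays lay above the highest sham array in each case. The count was 6 for Cx3cr1, also carried by monocytes, and 12 for the ligand Ccl6. Over the 54 members this count ran from 0 to 15, and it was not made for all genes tested. Only the untreated among the operated arrays shared the slide of the sham arrays. Ccr1, which binds Ccl3 and Ccl5, had levels of -0.49, 0.25, -0.76 and 0.86 under omeprazole, -0.98, -0.96, -0.79 and -1.93 under STW5 at 2 ml/kg and -0.37, -0.61, 0.94 and -1.16 under STW5 at 0.5 ml/kg. Its levels were -1.60, 0.22, -0.58 and -1.16 in untreated rats, against -1.99, -1.15, -1.56 and -1.31 in sham rats. Omeprazole arrays all lay above the sham arrays, and the untreated arrays overlapped both. Ccr2, the receptor of Ccl2, had levels of -0.26, -0.01, -0.12 and 0.33 under omeprazole, -0.06, -0.96, -0.49 and -1.13 under STW5 at 2 ml/kg and -0.40, 0.32, 1.22 and -0.49 under STW5 at 0.5 ml/kg. Its levels were -0.78, -0.83, -0.32 and 0.29 in untreated rats, against -0.99, -0.70, -1.15 and -0.87 in sham rats. STW5 2 ml/kg was lower than STW5 0.5 ml/kg at an unadjusted p below 0.05, and it was not called.

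Of the lymphocyte receptors, Cxcr3, which binds Cxcl9 and Cxcl10, had levels of -2.03, -1.27, -1.09 and -1.26 under omeprazole, -1.85, -1.53, -1.81 and -1.34 under STW5 at 2 ml/kg and -1.36, -1.52, -2.11 and -1.21 under STW5 at 0.5 ml/kg. Its levels were -1.63, -3.59, -1.08 and -1.11 in untreated rats, against -2.60, -1.02, -1.80 and -1.38 in sham rats. Untreated array 2 was the lowest. Cxcr5, which guides B cells to follicles through Cxcl13, had levels of -1.54, -1.85, -1.48 and -2.20 under omeprazole, -1.03, -1.16, -2.45 and -1.46 under STW5 at 2 ml/kg and -1.24, -3.26, -2.06 and -2.06 under STW5 at 0.5 ml/kg. Its levels were -1.43, -2.68, -3.30 and -2.88 in untreated rats, against -1.93, -2.06, -1.54 and -1.56 in sham rats. Untreated arrays 2, 3 and 4 lay below all sham arrays and untreated array 1 above them. Ccr6, the Ccl20 receptor of B and T cells, had levels of 0.67, 1.5, 1.32 and 1.81 under omeprazole, -0.10, 1.20, 2.09 and 2.12 under STW5 at 2 ml/kg and 0.81, 1.18, 0.83 and 1.38 under STW5 at 0.5 ml/kg. Its levels were 1.60, -1.06, 3.26 and 1.31 in untreated rats, against 1.19, 0.92, 1.71 and 1.26 in sham rats. Untreated array 3 was the highest and untreated array 2 the lowest of all 20. The mean B cell marker level was -2.33 on untreated array 2, against 0.32 to 0.75 on sham arrays, and the part of cell number was not tested.

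Cxcr6, the receptor of Cxcl16, was dim, with levels of -3.75, -2.81, -2.69 and -2.30 under omeprazole, -4.54, -4.17, -2.71 and -2.90 under STW5 at 2 ml/kg and -2.71, -3.58, -3.39 and -3.16 under STW5 at 0.5 ml/kg. Its levels were -3.87, -4.30, -3.42 and -3.02 in untreated rats, against -3.70, -3.64, -3.14 and -3.20 in sham rats. The groups overlapped. Ccr3, the eosinophil receptor for Ccl24, had levels of -3.28, -3.50, -3.85 and -3.65 under omeprazole, -3.92, -2.87, -2.56 and -2.83 under STW5 at 2 ml/kg and -2.84, -3.48, -4.21 and -2.88 under STW5 at 0.5 ml/kg. Its levels were -3.68, -4.51, -3.78 and -2.44 in untreated rats, against -3.32, -4.52, -2.98 and -3.91 in sham rats. It was well above background on 1 omeprazole, 2 STW5 2 ml/kg, 4 STW5 0.5 ml/kg, 2 untreated and 1 sham array, and the groups overlapped.

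The remaining tested members, with their mean levels over the 20 arrays, were Ccrl2 (0.79), an atypical receptor, Ccr9 (0.66), which guides lymphocytes to the gut, Ccr1l1 (0.10), Ccr10 (-2.53), the Ccl27 receptor, Xcr1 (-3.28), a receptor of cross-presenting dendritic cells, Cxcl3 (-3.42), Ccl17 (-3.49) and Ccl22 (-3.51), both ligands of Ccr4, Cxcl17 (-3.57), Cxcl5 (-4.06) and Ccl2 (-4.28). For Cxcl3 and Xcr1 a second probe was well above background on no array, and the second Xcl1 probe was so on 11 arrays against 18.

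Of 38 genes listed for signalling below chemokine receptors, 34 were tested. Rgs14, which limits G protein signalling, was higher under omeprazole than in untreated rats (log2 change 1.25 ± 0.32, n = 4 each; limma, adjusted p = 0.0252), the only call of the list in the 6 comparisons. This was 1 of 34 genes, beside 4.18% of all genes called in that comparison, whose groups lay on different slides. The mean Rgs14 level was 1.88 ± 0.41 (SD) under omeprazole and 0.63 ± 0.80 in untreated rats. The list's median was 0.09 under omeprazole against untreated rats, beside 0.10 for all genes, and 0.21 in untreated against sham rats, beside -0.19. Of chemokine-related genes under other names, Pf4 and Ppbp, both platelet ligands, and Cklf were tested, and none was called in any of the 6 comparisons. Marker lists of blood cells also had no call in these comparisons. In untreated against sham rats their median changes were 1.00 for neutrophils, 0.87 for monocytes, 0.36 for platelets, -0.35 for cytotoxic cells, -0.98 for red cells, -1.14 for B cells, -1.18 for T cells and -0.15 for eosinophils, basophils and mast cells. Under omeprazole against untreated rats, the medians were 0.16, 0.13, -0.24, -0.02, 0.49, 0.66, 0.80 and -0.38 in the same order. The monocyte markers were mixed in untreated against sham rats, with 5 above 0 and 4 below. The eosinophil, basophil and mast cell markers were mixed in both comparisons, with 1 above 0 and 2 below in each.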

How the data were processed

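Each array held 1 rat's blood RNA on a 1-colour Agilent rat array, 4 arrays in each of 5 groups. The deposited scanner files hold each spot's intensity, which per the file headers was background-subtracted by Agilent Feature Extraction 10.7.3.1 and was not normalized between arrays. A ratio per spot stands in the value table the authors deposited, found here to be the processed signal over the array's median; 8 STW5 columns follow the array of the other dose, and it served as an alternative only. Spots of a probe were averaged on the log2 scale without outlier spots, and the array's 75th percentile was subtracted. Genes whose brightest probe was well above background on at least 4 of 20 arrays entered limma 3.58.1 (R 4.3.3; 5 group means, 15 residual degrees of freedom, Benjamini-Hochberg over 15243 genes, two-sided). The 6 comparisons used the same fit. Probes were compared with BLAST+ 2.17.0. The number of arrays limits the precision.

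One member is in the counts and medians but is not reported here by itself. The members and gene lists were chosen with earlier results of these data known. Named genes were every tested member with its level, with changes for members called or among the 3 smallest p values of a comparison, and array values for these and a fixed set. Alternatives changed the normalization, background correction, dim-probe filter, probe rule, arrays used, covariate, variance estimate and replicate block, or left out each array in turn. A fit without both untreated arrays 1 and 2 was also tried after seeing the data. It was set aside because it leaves out an array for its likeness to sham, which selects rats by the outcome, and it called more members.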

Additional observations from a re-analysis of the deposited data

Results flagged for a closer look

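Of 115 sets of 4 arrays, 23 members in 5 groups, 6 held 1 array far from the other 3 by Dixon's criterion, where chance gives about 1 in 20. Ccl5 stood at 6.72 on sham array 1, against 4.55 to 4.68 on the other sham arrays. STW5 2 ml/kg array 4 was lower than the other 3 arrays of its group for Cxcr2 (1.56, against 2.84 to 2.99), Ccr1 (-1.93, against -0.98 to -0.79) and Cxcl16 (-4.69, against -2.71 to -2.31). Xcl1 stood at -1.88 on omeprazole array 3, against -2.42 to -2.41, and Cxcl10 at -3.51 on sham array 2, against -4.90 to -4.79.

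Another 11 members too dim to test were well above background on some of the 16 operated rats' arrays and on 0 sham arrays, and 1, Ccl25, on 1 sham array only. With 16 operated and 4 sham arrays, these are 11 of the 12 dim members above background on any array (91.7%), against 2487 of 2670 such dim genes overall (93.1%). Cxcl2 and Cxcl9 were so on 3 arrays, Ccl7 and Cxcl14 on 2, and Ccl11, Ccr4, Ccr8, Cxcl1, Cxcl11, Cxcl12 and Cxcr7 on 1 each.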

How the results depend on the processing

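The Ccl24 call under omeprazole held in 18 of 18 alternatives, the Cxcl16 call in 11 and the Cx3cr1 call in 9. Under omeprazole against untreated rats 1 member (2.94%) was called with normexp background correction, beside 3.11% of all genes, and 1 with only the compared groups in the fit, beside 2.51%. Leaving out 1 array gave 1 to 4 called members there (468 to 1144 genes), 0 to 4 for untreated against sham (0 to 1775 genes), 0 to 6 for STW5 2 ml/kg (0 to 3015), 0 to 1 for STW5 0.5 ml/kg (0 to 5), 0 to 1 for both doses (0 to 168) and 0 to 1 between doses (0 to 806). The member median for untreated against sham was -0.17 with normexp, and 0.037 to 0.34 leaving out 1 array. For STW5 0.5 ml/kg it was -0.17 with normexp and -0.33 with no filter on dim probes. Between doses, 9 members (26.5%) were called with normexp, beside 24.7% of all genes, and 8 (14.8%) with no filter, beside 20.6%. The member median between doses was 0.024 with quantile normalization, 0.46 with normexp, 0.61 with no filter, 0.054 with a stricter filter, 0.11 with the percentile covariate and -0.14 in the authors' deposited table, and 0.085 to 0.37 leaving out 1 array. Ccl27 reversed between doses with the covariate (-0.068). In the authors' deposited table, where STW5 columns follow the other dose, the dose changes were -0.60 for Ccl24, -1.34 for Cx3cr1 and -1.13 for Ccl27, and Ccl24 changed by 0.020 at 0.5 ml/kg against untreated rats. The cause of the other shifts was not tested.

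Replicate numbers were not taken to pair the rats, because the titles do not say that they do. Deviations from group means correlated above 0.1 in 19 of 40 same-number pairs (r from -0.44 to 0.59, mean 0.094). They did so in 37 of 120 different-number pairs (mean -0.031). Taking deviations from group means makes these mean correlations depend on each other, and they cannot exclude a pairing. The fit with the replicate number as a block gave 3 called members under omeprazole (716 genes) and 0 in the other comparisons, with 513 genes called for STW5 2 ml/kg against untreated rats and 528 between doses. Dim probes limit what can be seen: 20 of 54 members were not tested.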
